A study of Arabidopsis thaliana with 18 samples.

Results

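The genes described here are 200 loci of Arabidopsis thaliana whose transcripts stood above those of intact root tips at both 3 h and 6 h after root tips were cut. They were chosen by their read counts in the mock-treated libraries, out of the 22093 loci of the table. Counts were scaled to each library's reads on genes (CPM), and groups were averaged as log2(CPM + 1). A locus qualified when every mock cut library at 3 h and 6 h lay above every mock uncut library, when both differences were at least 1 on that log2 scale, and when neither difference was under 0.5 times the other. The first condition held for 1006 loci, both conditions on size for 373 and all conditions for 345, of which the 200 with the highest sum of both differences were kept.

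The study measured root tips of seedlings grown for 7 days, by 3′ RNA sequencing, which counts the ends of transcripts. Cut meristems had been dissected 120 µm above the quiescent centre, the slowly dividing cells at the heart of the root stem cell niche. L-kynurenine, written L-Kyn, was given at 100 µM and is known to block enzymes that make auxin from tryptophan. The groups were mock cut tips at 3 h (3 libraries) and 6 h (2 libraries), mock uncut tips with no hours in the labels (3 libraries), L-Kyn cut tips at 3 h (2 libraries), L-Kyn uncut tips at 3 h (3 libraries), L-Kyn cut tips at 6 h (3 libraries) and L-Kyn uncut tips at 6 h (2 libraries). The hours of mock cut tips count from the cut, and those of L-Kyn tips from the start of L-Kyn. The order of L-Kyn and the cut is not given in the sources used here. All tips are whole mixtures of cell types, so fewer cells of a type and less RNA per cell cannot be told apart. The labels do not say whether replicates are separate batches of seedlings, and the p-values therefore measure only the spread among these libraries, which may be technical.

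A plant wound is followed within minutes by calcium and reactive oxygen signals and later by jasmonate synthesis, wall remodelling and detoxification. A root that has lost its tip can rebuild it, a process in which auxin made near the cut takes part. Genes that stay high for hours after such a cut can thus belong to stress programmes, to wall and membrane remodelling or to repair.

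The mock libraries chose the members, so mock values are a description. The differences of mock cut minus mock uncut tips ran from 1.11 to 5.94 at 3 h (median 1.98) and from 1.08 to 4.94 at 6 h (median 1.64) in log2(CPM + 1). Just inside the edge of the rule, the locus AT1G53660 had a sum of both differences of 2.96 and ANNAT1 of 2.93. Just outside it, AT1G10380 and ATL6 both had a sum of 2.92. In the edgeR quasi-likelihood test with Benjamini-Hochberg adjustment, 133 members were called higher in mock cut tips at 3 h, beside 3.99% of all genes tested, and 0 lower, beside 5.9%. At 6 h no gene was called in mock cut tips (0 members and 0% of all genes), while 158 members had an unadjusted p under 0.05 and a higher level, beside 4.74% of all genes. Of the members, 105 had a symbol of their own in the RefSeq gene table, and the rest are named by locus. Near-identical or neighbouring genes can share reads, and 22 members stand next to another member in the table, among them KIN1 and KIN2, XTH18 and XTH19, and GSTU5 and GSTU6. GSTF2 and GSTF3 are also near copies. The values of these genes are uncertain to that degree.

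A library stands apart from its label. The members took up 2.13% of the reads on genes in L-Kyn cut 3 h replicate 1, but 0.410% in the library labelled as L-Kyn cut 3 h replicate 2, against 0.556%, 0.516% and 0.532% in the L-Kyn uncut 3 h libraries. Over the genes that are no members, the Spearman correlation of the library labelled replicate 2 was 0.976 with the mean of L-Kyn uncut 3 h tips and 0.891 with the mean of mock cut 3 h tips. For replicate 1 these values were 0.913 and 0.961. The library labelled replicate 2 enters the tests by its level or through the shared estimate of spread. The counts of all members called in L-Kyn tips are given with and without it. Calls in mock tips, and most SEs and adjusted p-values of single genes, are from the fit of all 18 libraries only. For L-Kyn uncut 6 h replicate 1 the title and the source field differ on the cut, and the group follows the title. The libraries held 1280947 to 4839810 reads on genes, which puts 3 counts at 0.620 to 2.34 CPM. Floors and counting intervals cover counting error only.

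**Figure D1:**
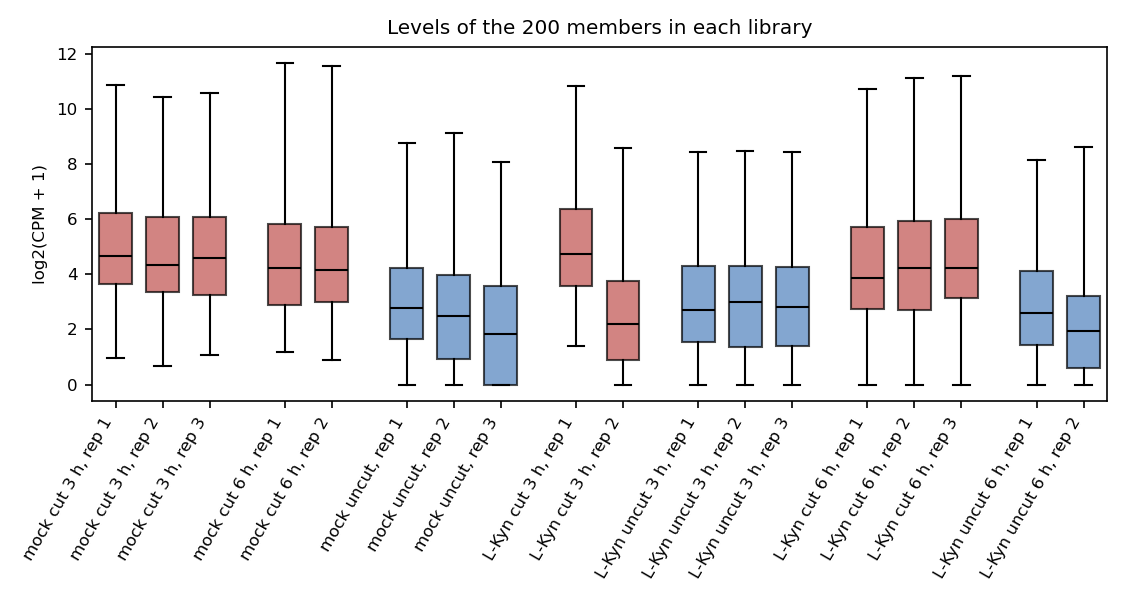
Levels of the 200 members, as log2(CPM + 1), in each of the 18 libraries; boxes give the quartiles, the line the median and whiskers the full range, with cut tips in red and uncut tips in blue. The box of the library labelled as L-Kyn cut 3 h replicate 2 lies with the uncut tips, and the members' median there is 3.61 CPM, against 25.4 CPM in L-Kyn cut 3 h replicate 1.

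The L-Kyn libraries had no part in choosing the members, and cutting under L-Kyn was followed by higher levels of nearly all of them at 6 h. The members took up 1.49%, 1.55% and 1.65% of the reads on genes in L-Kyn cut tips at 6 h, against 0.428% and 0.316% in the L-Kyn uncut libraries at 6 h. The log2 fold change of L-Kyn cut over L-Kyn uncut tips was positive for 194 of 200 members, beside 49.8% of all genes tested, with a median of 1.95 (3.87-fold) and quartiles of 1.23 and 2.88. The median of all genes tested was −0.00. With the 7 members that had 0 counts in both L-Kyn uncut 6 h libraries set to their lower bound against a pooled floor of 3 counts, the median was 1.94. All L-Kyn cut libraries lay above both L-Kyn uncut libraries for 160 members, beside 19.9% of all genes, and below them for 0 members, beside 19.2%. All 200 members passed the expression filter.

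Far fewer members passed the test gene by gene. In the fit of all 18 libraries, edgeR called 19 of 200 members higher in L-Kyn cut tips at 6 h (9.5%), beside 0.342% of all 16354 genes tested, and 0 members lower, beside 0.263%. An unadjusted p under 0.05 with a higher level was seen for 126 members, beside 8.6% of all genes. DESeq2 called 68 members higher and 0 lower, beside 716 of 22093 genes in either direction. Without the library labelled as L-Kyn cut 3 h replicate 2, which enters this test only through the shared spread and the filter, 75 of 198 members were called higher (37.9%), beside 1.75% of 16934 genes, and 0 lower, beside 1.56%. The 19 calls were all among the 75. Without 1 library of the 6 h groups the count was 3 (L-Kyn cut replicate 1), 0 (L-Kyn cut replicate 2), 0 (L-Kyn cut replicate 3), 4 (L-Kyn uncut replicate 1) or 0 (L-Kyn uncut replicate 2), while the members' median stayed between 1.71 and 2.45. Calls described next come from the fit of all 18 libraries unless the smaller fit is named.

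**Figure D2:**
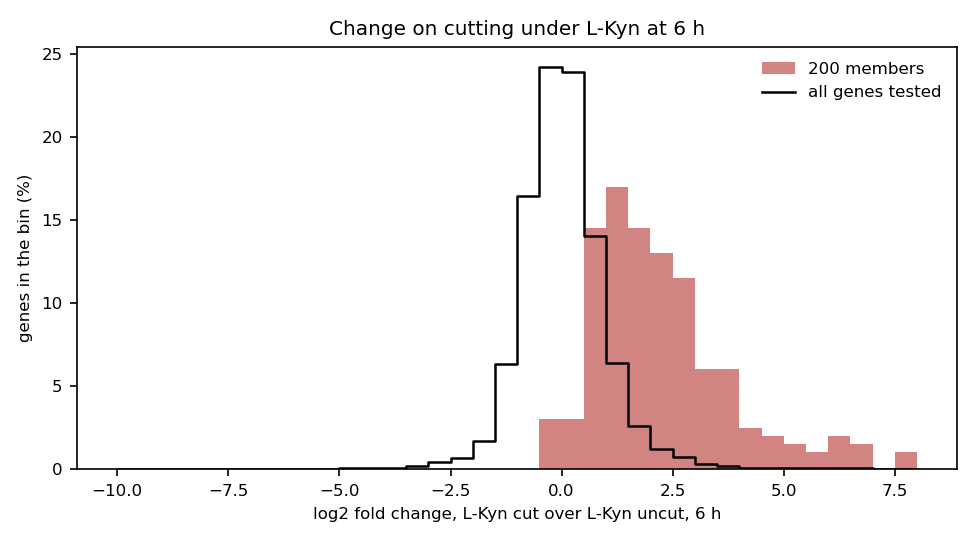
Log2 fold change of L-Kyn cut over L-Kyn uncut tips at 6 h for the 200 members (red bars) and for all 16354 genes tested (black line), as percent of each in bins of the same width. The members' median of 1.95 lies to the right of the median of all genes, −0.00, and 6 members lie below 0.

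The cold and dehydration genes KIN1 and KIN2, which encode small hydrophilic proteins known from cold-treated plants, were among the highest members. KIN2 had 1717, 2224 and 2377 CPM in L-Kyn cut tips at 6 h, against 59.8 and 38.6 CPM in L-Kyn uncut tips at 6 h. Its log2 fold change was 5.36 (SE 0.94, adjusted p = 0.0258 by edgeR). In mock tips, which chose it, KIN2 had 1893, 1268 and 1518 CPM at 3 h and 3264 and 3069 CPM at 6 h in cut tips, against 221, 136 and 62.0 CPM in uncut tips. The L-Kyn cut and uncut libraries did not overlap at 6 h. At 3 h KIN2 had 1853 CPM in L-Kyn cut replicate 1 and 55.2 CPM in the library labelled replicate 2, against 85.7, 46.5 and 92.5 CPM in L-Kyn uncut tips, so that the second of the cut libraries lay within the uncut range. KIN1 had 153, 202.2 and 301 CPM in L-Kyn cut tips at 6 h, against 7.82 and 2.85 CPM in L-Kyn uncut tips (log2 fold change 5.32, SE 1.18, adjusted p = 0.0443 by edgeR).

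RNS1, a secreted ribonuclease known from phosphate starvation and wounding, had the highest sum of mock differences. It had 67.7, 48.4 and 52.4 CPM in L-Kyn cut tips at 6 h, against 1.02 and 0 CPM in L-Kyn uncut tips. The uncut value rests on 3 counts, and the ratio of the pooled CPM was 137 (exact 95% counting interval 46.7 to 668). The adjusted p by edgeR was 0.0558 with all libraries and 0.00064 without the library labelled as L-Kyn cut 3 h replicate 2. ENDO2, an endonuclease, had 26.6, 46.1 and 30.4 CPM in L-Kyn cut tips at 6 h, against 1.02 and 0 CPM in L-Kyn uncut tips, which again is 3 counts (pooled ratio 69.8, exact 95% counting interval 23.61 to 341). Its adjusted p was 0.0548 with all libraries and 0.00031 in the smaller edgeR fit. With all 18 libraries DESeq2 called both nucleases higher (adjusted p = 0.01635 for RNS1 and 0.0258 for ENDO2), as did edgeR with no filter (adjusted p = 0.02372 for RNS1 and 0.02405 for ENDO2). Their cut and uncut libraries did not overlap at 6 h.

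The 2 largest changes among the 19 called members were those of AT4G15630 and PRN. AT4G15630, an uncharacterised protein of the UPF0497 family, had 112, 206 and 167 CPM in L-Kyn cut tips at 6 h, against 2.38 and 0.519 CPM in L-Kyn uncut tips (log2 fold change 6.78, SE 1.24, adjusted p = 0.0276 by edgeR). PRN, a pirin that binds a G protein subunit, had 94.1, 82.8 and 83.8 CPM in L-Kyn cut tips, against 1.70 and 0.259 CPM in L-Kyn uncut tips (log2 fold change 6.47, SE 1.29, adjusted p = 0.0399 by edgeR). AT5G61890, annotated as an integrase-type DNA-binding protein, followed with 103, 108 and 86.8 CPM in L-Kyn cut tips, against 1.02 and 1.296 CPM in L-Kyn uncut tips (log2 fold change 6.29, SE 1.43, adjusted p = 0.0490 by edgeR). In each of these 3 genes the cut libraries lay far above both uncut libraries.

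**Figure D3:**
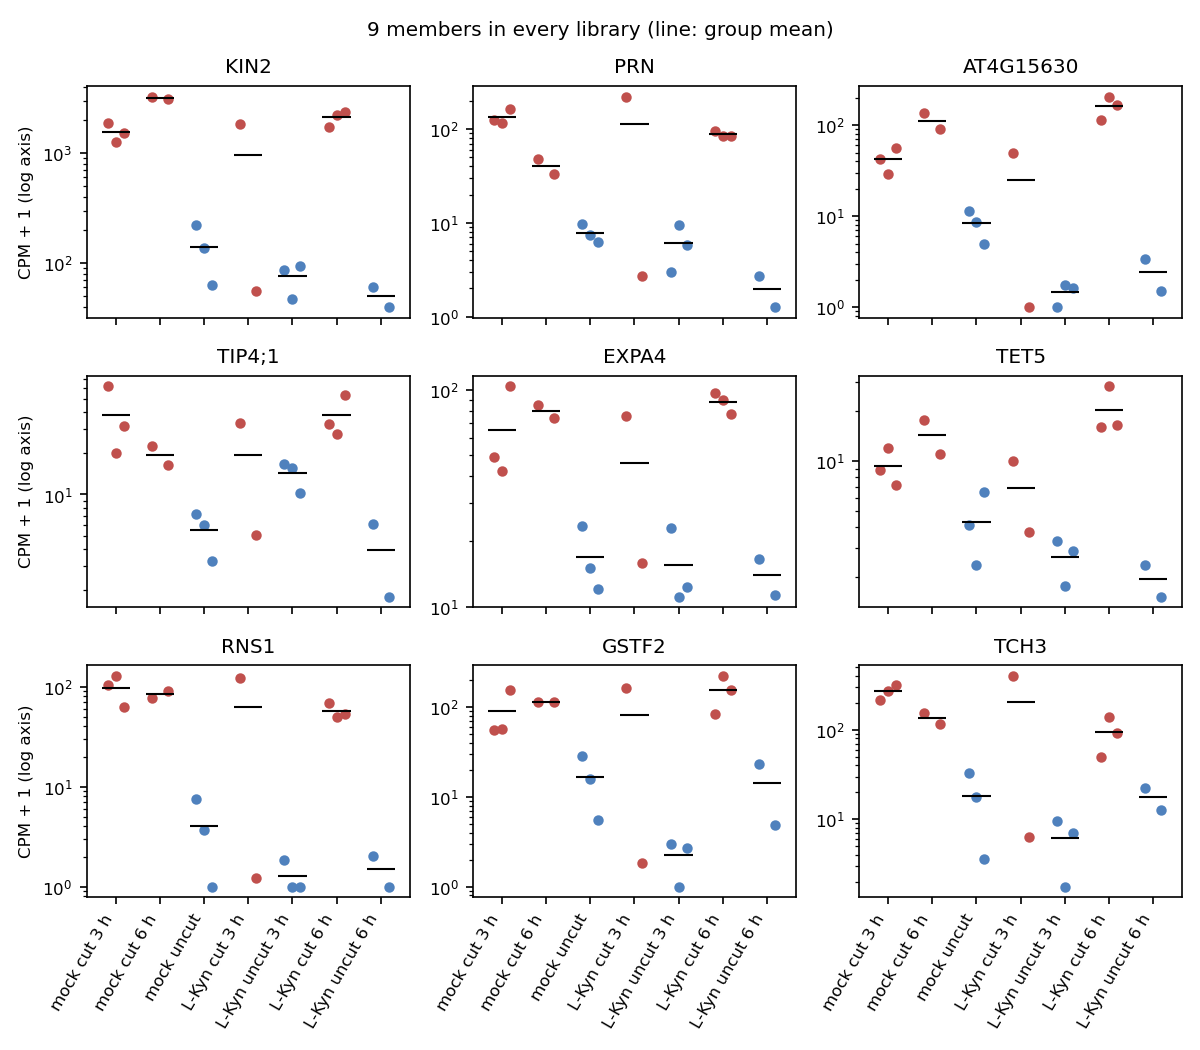
CPM + 1 on a log axis of 9 members in every library, cut tips in red and uncut tips in blue, with a line at the group mean. In L-Kyn cut tips at 3 h the upper point is replicate 1 and the lower point the library labelled replicate 2, for KIN2 1853 and 55.2 CPM.

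Shown next is the stretch of 250 bases before the annotated start. It is given for members with the highest sum of mock differences and for those with the largest called changes at 6 h. Coordinates and sequence are those of RefSeq assembly TAIR10.1, matched by locus, while the submitters' processing notes name TAIR10. The stretch of AT2G34930 overlaps an exon of AT2G34940 and is not shown. Capitals mark letters of the motifs searched on both strands, and a match is a description of letters, not of a bound site. RNS1 (chr2:873256-873505, plus strand) holds 1 heat shock element core, KIN1 (chr5:5209467-5209716, plus strand) 1 ABRE core, AT4G15630 (chr4:8917010-8917259, plus strand) 3 W-box cores, and PRN (chr3:21893562-21893811, plus strand) 2 G-boxes that overlap 2 ABRE cores.
RNS1: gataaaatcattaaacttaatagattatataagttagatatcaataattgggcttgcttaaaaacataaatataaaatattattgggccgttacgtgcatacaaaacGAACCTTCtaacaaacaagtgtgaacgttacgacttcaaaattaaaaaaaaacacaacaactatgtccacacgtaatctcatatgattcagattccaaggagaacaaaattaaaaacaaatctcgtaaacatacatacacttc
KIN1: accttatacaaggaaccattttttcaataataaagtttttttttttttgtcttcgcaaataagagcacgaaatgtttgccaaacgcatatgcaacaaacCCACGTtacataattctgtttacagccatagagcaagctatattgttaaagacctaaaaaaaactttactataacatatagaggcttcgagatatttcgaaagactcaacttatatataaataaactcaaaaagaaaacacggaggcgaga
AT4G15630: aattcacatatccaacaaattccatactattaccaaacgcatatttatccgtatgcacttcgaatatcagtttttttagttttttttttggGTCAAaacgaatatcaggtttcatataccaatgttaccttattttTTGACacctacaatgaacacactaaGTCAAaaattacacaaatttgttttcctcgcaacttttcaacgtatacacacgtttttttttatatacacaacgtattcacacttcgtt
PRN: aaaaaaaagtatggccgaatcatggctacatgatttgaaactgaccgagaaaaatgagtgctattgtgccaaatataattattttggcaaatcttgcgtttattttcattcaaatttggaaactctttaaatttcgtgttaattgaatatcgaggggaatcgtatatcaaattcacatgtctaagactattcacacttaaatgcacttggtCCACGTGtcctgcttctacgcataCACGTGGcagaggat

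In the window from 250 bases before to 50 after the start, motif shares are over all members but 1 and over all 21788 loci with a promoter. The W-box core TTGAC, bound by WRKY factors, stood in 55.8% of the members and 50.7% of all. The RSRE core CGCGTT, known from rapid wound responses, stood in 6.53% of the members and 3.67% of all. The DRE core CCGAC stood in 16.6% of the members and 15.9% of all, the ABRE core ACGTGG in 11.1% and 10.7%, and the G-box CACGTG in 6.03% and 8.47%. The auxin response element TGTCTC stood in 12.6% of the members and 14.0% of all, the heat shock element core GAANNTTC in 10.05% and 11.4%, the as-1 half-site TGACG in 19.6% and 23.8%, and the GCC-box GCCGCC in 2.01% and 2.69%. G-box and ABRE core can overlap, as can W-box core and as-1 half-site. In the 250 bases before the start alone, the W-box core stood in 52.8% of the members and 45.0% of all, the RSRE core in 3.52% and 2.77%, the DRE core in 14.6% and 12.7%, the ABRE core in 11.1% and 8.88%, and the G-box in 5.53% and 7.10%. There the auxin response element stood in 9.05% of the members and 10.9% of all, the heat shock element core in 8.54% and 9.32%, the as-1 half-site in 16.6% and 19.2%, and the GCC-box in 1.51% and 1.96%. No test was made of these shares.

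Members with products in 12 classes were compared by their annotated product words, and both the classes and genes named only through them were chosen after the values were seen. The glutathione transferases, which join glutathione to reactive molecules, gave 7 members. GSTF2 had 83.7, 222 and 155 CPM in L-Kyn cut tips at 6 h, against 22.4 and 3.89 CPM in L-Kyn uncut tips. GSTU5 had 126, 222 and 153 CPM in L-Kyn cut tips, against 14.3 and 10.6 CPM in L-Kyn uncut tips, and ERD9, a dehydration-induced member of the family, 174, 296 and 192 CPM against 10.9 and 7.00 CPM. None of the 7 was called at 6 h with all libraries and 6 were called higher without the library labelled as L-Kyn cut 3 h replicate 2. In 6 of the 7 the 6 h libraries did not overlap, beside 22 of all 44 tested genes with the same product words. The median log2 fold change was 3.68 in the members and 0.93 in all 44.

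Of the 19 calls at 6 h, 2 were aquaporins and 7 were members in none of the 12 classes. TIP4;1, a tonoplast aquaporin, had 31.7, 26.5 and 52.4 CPM in L-Kyn cut tips, against 5.10 and 0.778 CPM in L-Kyn uncut tips (log2 fold change 3.66, SE 0.81, adjusted p = 0.0427 by edgeR). TIP2, also a tonoplast channel, had 260, 493 and 541 CPM in L-Kyn cut tips, against 65.9 and 22.8 CPM in L-Kyn uncut tips (log2 fold change 3.24, SE 0.67, adjusted p = 0.0399 by edgeR). The third aquaporin, PIP2A, had a log2 fold change of 1.94 with an adjusted p of 0.113 by edgeR. Of all 20 tested genes with the aquaporin product words, 4 were called higher, and 16 had L-Kyn cut libraries all above the L-Kyn uncut libraries. Of 5 class III peroxidases, which cross-link or loosen walls, 2 were called higher, AT3G21770 and AT3G01190, and all 5 had 6 h libraries that did not overlap. Of all 29 tested genes with the same product words, 4 were called higher and 21 had L-Kyn cut libraries all above the L-Kyn uncut libraries. AT3G01190 had 69.5, 107 and 113 CPM in L-Kyn cut tips, against 13.3 and 0.519 CPM in L-Kyn uncut tips, which differ widely from each other.

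Expansin A4 (EXPA4), which loosens walls, had 95.2, 89.0 and 76.3 CPM in L-Kyn cut tips at 6 h, against 15.6 and 10.4 CPM in L-Kyn uncut tips (log2 fold change 2.70, SE 0.58, adjusted p = 0.0413 by edgeR). Among 6 members of the expansin and xyloglucan endotransglucosylase class it was the only one called with all libraries. Of 6 pectin-modifying members 2 were called higher, both annotated as pectin methylesterase inhibitors. AT3G47380 had 37.3, 27.3 and 32.4 CPM in L-Kyn cut tips, against 2.04 and 1.56 CPM in L-Kyn uncut tips (log2 fold change 4.11), and AT5G62350 had a log2 fold change of 2.903. Of 6 extensins and proline-rich proteins 1 was called, AT3G28550, with 30.4, 32.8 and 104 CPM in L-Kyn cut tips, against 3.74 and 0.259 CPM in L-Kyn uncut tips. Of the 6 members in each of these wall classes, 5 had 6 h libraries that did not overlap. Over all tested genes with the same product words, the shares were 20 of 31 for expansins and xyloglucan endotransglucosylases. They were 33 of 84 for pectin-modifying genes and 18 of 32 for extensins and proline-rich proteins. Called higher at 6 h with all libraries were 2, 3 and 1 of these, in that order.

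Members at the membrane and in calcium signalling follow. TET5, a tetraspanin of the plasma membrane, had 15.1, 27.3 and 15.5 CPM in L-Kyn cut tips at 6 h, against 1.36 and 0.519 CPM in L-Kyn uncut tips (log2 fold change 4.28, SE 0.74, adjusted p = 0.0258 by edgeR). ANNAT1, a calcium-dependent membrane-binding annexin, was the lowest of the 19 calls, with 242, 200.6 and 341 CPM in L-Kyn cut tips, against 76.1 and 39.7 CPM in L-Kyn uncut tips (log2 fold change 2.13, SE 0.46, adjusted p = 0.0406 by edgeR). Next to it were AGP12, an arabinogalactan protein (2.32), UMAMIT33, of an amino acid transporter family (2.48), and the peroxidase AT3G21770 (2.61). TCH3, a calmodulin-like protein first known from touched plants, had 48.6, 139 and 91.3 CPM in L-Kyn cut tips, against 21.4 and 11.7 CPM in L-Kyn uncut tips, with an adjusted p of 0.232 by edgeR with all libraries and 0.0481 in the smaller fit. None of the 6 EF-hand members was called with all libraries and 3 were in the smaller fit. Of 11 transcription factors 1 was called with all libraries and 5 in the smaller fit.

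Of the 7 members with 0 counts in both L-Kyn uncut 6 h libraries, all were low. AT3G47480, an EF-hand protein, had 3.77, 19.5 and 8.48 CPM in L-Kyn cut tips, at least 24.0-fold higher than a floor of 3 counts pooled over the L-Kyn uncut libraries. AT3G04300, of the RmlC-like cupin superfamily, had 10.2, 8.59 and 9.47 CPM and was at least 21.4-fold higher. CLE2, a small signalling peptide, had 1.33, 1.56 and 3.99 CPM and was at least 5.20-fold higher. None of these 3 genes, named after their values were seen, was called with all libraries, and the first 2 were called in the smaller fit.

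The members with roles in defence, oxidants and peptides named next were not called with all libraries. AT2G34930, a leucine-rich repeat protein of a disease resistance family, had 11.5, 3.90 and 9.97 CPM in L-Kyn cut tips at 6 h, against 1.02 and 0.778 CPM in L-Kyn uncut tips. E13L3, a predicted glucanase, had 8.21, 3.90 and 9.97 CPM in L-Kyn cut tips, against 0.680 and 1.04 CPM. Both were called in the smaller fit, at adjusted p of 0.00743 and 0.0260 by edgeR. BIK1, a kinase of immune signalling, had 12.9, 8.59 and 15.0 CPM in L-Kyn cut tips, against 2.38 and 0.778 CPM in L-Kyn uncut tips (adjusted p = 0.0584 by edgeR with all libraries and 0.0134 in the smaller fit).

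RHD2, an NADPH oxidase that root hairs need and that is also on the root hair list, had 6.22, 34.3 and 29.9 CPM in L-Kyn cut tips at 6 h, against 3.74 and 1.296 CPM in L-Kyn uncut tips. DHAR1, which regenerates ascorbate, had 12.4, 12.5 and 10.5 CPM in L-Kyn cut tips, against 8.49 and 3.89 CPM, a small difference (adjusted p = 0.472 by edgeR). Precursors of phytosulfokine, a peptide that promotes growth, gave 3 members. PSK1 had 153, 97.6 and 139 CPM in L-Kyn cut tips, against 25.1 and 55.7 CPM in L-Kyn uncut tips. PSK5 had 1.33, 1.56 and 2.49 CPM in L-Kyn cut tips, against 0 and 0.259 CPM, 1 count in all, with a pooled ratio of 11.3 (exact 95% counting interval 1.70 to 482). PSK2 overlapped at 6 h, with 3.11, 3.12 and 0.997 CPM in L-Kyn cut tips, against 1.02 and 0.519 CPM in L-Kyn uncut tips.

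At 6 h under L-Kyn the log2 fold change was negative for 6 of 200 members, AT5G18150 and AT1G53660 among them, and small and positive for others such as WRKY33 (0.39) and AT4G19200 (0.19). AT5G18150 and AT4G19200 were picked as examples after their values were seen. AT5G18150, a methyltransferase-related protein, had 1.33, 3.12 and 1.99 CPM in L-Kyn cut tips, against 3.74 and 1.56 CPM in L-Kyn uncut tips, near the floor of counting. AT1G53660, a predicted transporter, had 0.666, 0.781 and 1.496 CPM in L-Kyn cut tips, against 0.340 and 1.56 CPM. WRKY33, a transcription factor of immunity, had 2.22, 5.46 and 7.48 CPM in L-Kyn cut tips, against 2.04 and 4.67 CPM in L-Kyn uncut tips. The proline-rich AT4G19200 was well measured, with 48.0, 36.7 and 30.9 CPM in L-Kyn cut tips, against 31.9 and 33.7 CPM in L-Kyn uncut tips. The cut and uncut libraries overlapped in all 4 genes. Of the 14 membrane transporters 6 had L-Kyn cut libraries all above the L-Kyn uncut libraries at 6 h, beside 127 of all 366 tested genes with the same product words. Of the 6 proteases and carboxypeptidases 5 did so, beside 45 of 215 tested genes with those words, and of the 122 members in no class 98 did so, beside 19.9% of all genes.

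At 3 h the values turn on the library labelled as L-Kyn cut 3 h replicate 2. With it, edgeR called 0 of 200 members and 0% of all genes in either direction. DESeq2 called 26 members higher, beside 53 of 22093 genes in either direction. With that library, 88 members had an unadjusted p under 0.05 by edgeR with a higher level, beside 2.86% of all genes. Without it, 76 of 198 members were called higher (38.4%), beside 1.42% of 16934 genes, and 0 lower, beside 0.579%. L-Kyn cut tips then have 1 library at 3 h, which is assumed to vary like the other groups. The median log2 fold change was 1.18 with the library and 1.92 without it, and −0.53 when replicate 1 was left out in its place. Replicate 1 lay above every L-Kyn uncut 3 h library for 181 members, beside 30.9% of all genes. The library labelled replicate 2 did so for 27 members (13.5%), beside 27.9%, and both did for 26 members, beside 9.03%.

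The members with the largest changes at 3 h rest on L-Kyn cut 3 h replicate 1. HSP17.6II, a small heat shock protein, had 65.5 CPM there and 0 CPM in the library labelled replicate 2, against 0, 0 and 0.209 CPM in L-Kyn uncut tips. RNS1 had 122 and 0.212 CPM in the L-Kyn cut libraries at 3 h, against 0.863, 0 and 0 CPM in L-Kyn uncut tips, and ENDO2 had 47.5 and 0 CPM, against 0.288, 0 and 0 CPM. MYB15, a factor known from cold and lignin responses, had 13.6 and 0 CPM, against 0 counts in every L-Kyn uncut library, so that replicate 1 was at least 43.4-fold higher than a pooled floor of 3 counts. At 6 h MYB15 had 2.89, 4.68 and 2.99 CPM in L-Kyn cut tips, against 0 counts in L-Kyn uncut tips, at least 7.98-fold higher than the pooled floor. Without the library labelled replicate 2, RNS1, ENDO2, HSP17.6II, MYB15 and AT5G61890 were the 5 called members with the largest 3 h changes.

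Calls by class at both hours are given side by side. Without the library labelled replicate 2, all 7 glutathione transferases were called at 3 h (median log2 fold change 6.66), as were all 5 of the dehydrin, LEA and KIN class (median 4.64) and 5 of 6 EF-hand proteins (median 3.79). None of the 5 peroxidases (median 0.86) and none of the 3 aquaporins (median 1.35) was called at 3 h in that fit, whereas at 6 h 4 peroxidases and 2 aquaporins were called in the same fit. Of the members, 44 were called at both hours in the smaller fit. The same count over all genes was not made, so nothing is read from this number. A test was made of the difference itself, the cut response at 6 h minus that at 3 h. With all libraries, edgeR called 0 members and 0% of all genes. DESeq2 called 0 members, beside 4 of 22093 genes in either direction. An unadjusted p under 0.05 was seen for 25 members with a larger response at 6 h, beside 2.37% of all genes, and for 3 with a smaller one, beside 2.45%. Without the library labelled replicate 2, 0 members were called, beside 0.00591% of genes called lower, with an unadjusted p under 0.05 for 8 members with a larger response at 6 h, beside 1.72% of genes, and for 23 with a smaller one, beside 1.39%. The difference between hours is thus not shown for any member.

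**Figure D4:**
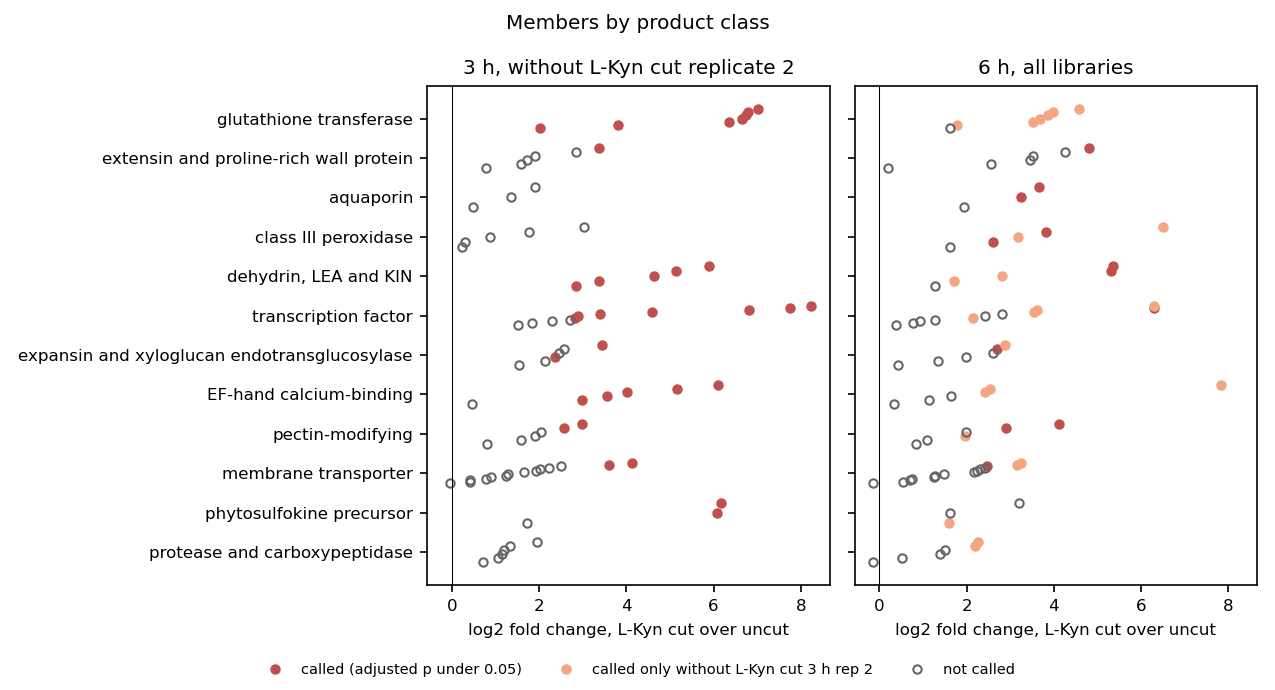
Log2 fold change of L-Kyn cut over L-Kyn uncut tips for members of 12 product classes, at 3 h without the library labelled as L-Kyn cut 3 h replicate 2 (left) and at 6 h with all libraries (right). Filled red points were called by edgeR, pale points at 6 h were called only without that library, and open points were not called; 7 glutathione transferases are filled at 3 h and 0 at 6 h, and fitted values of genes with 0 to 3 counts in L-Kyn uncut tips depend on the prior count and are no bound.

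Values of UMAMIT33 and WRKY48 at both hours are given as examples, and neither was called in the test of the difference between hours. UMAMIT33 had 21.3 CPM in L-Kyn cut 3 h replicate 1 and 9.55 CPM in the library labelled replicate 2, against 16.4, 34.9 and 18.6 CPM in L-Kyn uncut tips, and so overlapped at 3 h. At 6 h it had 33.5, 35.1 and 38.9 CPM in L-Kyn cut tips, against 10.5 and 2.33 CPM in L-Kyn uncut tips. WRKY48, a stress-induced transcription factor, had 53.1 and 0.848 CPM in L-Kyn cut tips at 3 h, against 0.863, 0.776 and 0 CPM in L-Kyn uncut tips. At 6 h it had 41.7, 60.9 and 38.9 CPM in L-Kyn cut tips, against 6.46 and 1.56 CPM in L-Kyn uncut tips. Across the 200 members the difference of L-Kyn cut minus L-Kyn uncut tips at 6 h had a Pearson r of 0.58 and a Spearman rho of 0.45 with that of replicate 1 at 3 h. The mock difference at 6 h had an r of 0.70 and a rho of 0.57 with the L-Kyn difference at 6 h, and the mock difference at 3 h an r of 0.68 and a rho of 0.53 with that of L-Kyn cut 3 h replicate 1. These are descriptions over genes measured in the same libraries, with no test.

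**Figure D5:**
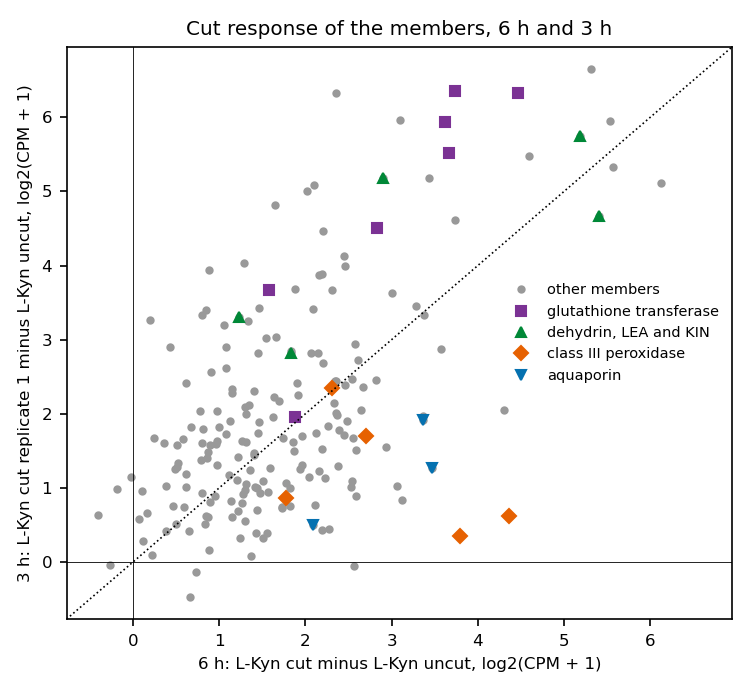
Difference of L-Kyn cut minus L-Kyn uncut tips in log2(CPM + 1) for the 200 members, at 6 h (horizontal) and at 3 h in L-Kyn cut replicate 1 (vertical), with a dotted line of equal differences. In this plot 196 members lie above 0 at 6 h and 196 at 3 h.

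Of 20 gene lists, 11 held members, 31 in all, and 169 members were on no list as matched. Of 771 names written for the gene and marker lists, 72 were not matched to 1 locus, and list counts cover matched names only. AT5G61890, a called member annotated as an integrase-type DNA-binding protein, was matched to no list name. The list counts leave it out, and whether a name that was not matched stands for it was not checked. List counts stand beside the shares of all genes called higher, 0.342% at 6 h with all libraries and, for the smaller fit, those given above. The cold and dehydration list, with 27 genes in the table and 5 members (KIN1, KIN2, LTI30, ERD9 and LEA14), had 2 of 23 tested genes called higher at 6 h and, in the smaller fit, 8 of 22 at 6 h and 14 of 22 at 3 h. LTI30, a dehydrin, had 354, 480 and 328 CPM in L-Kyn cut tips at 6 h, against 74.8 and 33.7 CPM in L-Kyn uncut tips. Cell wall loosening (5 members, XTH17, EXPA4, XTH18, XTH19 and EXLA2) had 2 of 33 called higher at 6 h, EXPA4 and XTH15, which is no member, and in the smaller fit 10 of 34 higher and 1 lower at 6 h and 5 of 34 higher at 3 h. The glutathione transferase list had 0 of 29 called at 6 h, and in the smaller fit 7 of 29 at 6 h and 8 of 29 at 3 h.

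The other 8 lists with members had no matched gene called at 6 h with all libraries, beside 0.342% of all genes called higher. The counts that follow are those called higher in the smaller fit, whose shares over all genes are given above. Regeneration and wound healing (PSK2, PSK5, XTH19 and NAC096) had 5 of 22 at 6 h and 4 of 22 at 3 h. NAC096, of a factor family active in the healing of cut stems, had 4.66, 14.1 and 6.98 CPM in L-Kyn cut tips at 6 h, against 0.680 and 0.519 CPM in L-Kyn uncut tips. Calcium and touch (TCH3) had 2 of 13 at 6 h and 8 of 13 at 3 h, and the WRKY, ZAT and MYB factors (MYB15, WRKY48 and WRKY33) 2 of 23 and 6 of 23. Reactive oxygen and alternative respiration (RHD2 and DHAR1) had 2 of 21 and 1 of 21, cell death nucleases and proteases (RNS1 and ENDO2) 2 of 17 and 2 of 17, and heat shock (HSP17.6II) 1 of 23 and 4 of 23. Innate immunity (BIK1) had 1 of 16 and 1 of 16, and jasmonate (AOC3 and JAZ10) 0 of 16 and 3 of 16. AOC3, an enzyme of jasmonate synthesis, had 200.9, 195 and 136 CPM in L-Kyn cut tips at 6 h, against 73.7 and 40.4 CPM in L-Kyn uncut tips (adjusted p = 0.218 by edgeR).

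The auxin-responsive list held 0 members, and of its 14 tested genes 0 were called at 6 h; in the smaller fit 1 of 16 was called lower at 6 h and 0 at 3 h. The lists for abscisic acid, autophagy and the circadian clock held 0 members and had 0 genes called at either hour in either fit. The ERF and DREB list held 0 members among its matched names, which do not cover AT5G61890. In the smaller fit 0 of its 18 tested genes were called at 6 h, and their median log2 fold change at 3 h was 0.93. In that fit glucosyltransferases and detoxification had 3 of 24 and 2 of 24 higher at 6 h and 3 h, phenylpropanoid and lignin 2 of 21 and 1 of 21, sugar starvation and senescence 0 of 26 and 1 of 26, and ethylene 1 of 19 higher and 1 lower at 6 h and 0 at 3 h. These last 5 lists had no matched gene called with all libraries, and the ERF and DREB list had 25 of its 32 written names in the table.

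Summed levels of cell type markers of the root tip were separate between L-Kyn cut and uncut tips for some types and overlapped for others. The summed level of 14 mitosis genes was 76.5 to 97.0 CPM in L-Kyn cut tips at 6 h, against 221 to 239 CPM in L-Kyn uncut tips, and 61.4 CPM in L-Kyn cut 3 h replicate 1 and 277 CPM in the library labelled replicate 2, against 224 to 340 CPM in L-Kyn uncut 3 h tips. Stem cell niche genes (13) summed to 236 to 286 CPM in L-Kyn cut tips at 6 h, against 391 to 439 CPM in L-Kyn uncut tips. RGF2, a root growth peptide, was at 0 in all L-Kyn cut 6 h libraries. Root cap genes (4) summed to 201.97 to 308 CPM against 352 to 420 CPM, with FEZ at 0. With all libraries, 4 of 13 niche, 1 of 14 mitosis and 1 of 4 root cap genes were called lower at 6 h, beside 0.263% of all genes. Phloem genes (12) summed to 36.9 to 68.7 CPM in L-Kyn cut tips against 27.7 to 36.7 CPM in L-Kyn uncut tips. Endodermis genes (8) summed to 10.2 to 29.4 CPM against 4.15 to 9.85 CPM, and xylem genes (8) to 19.8 to 58.3 CPM against 17.63 to 21.1 CPM. The phloem ranges nearly met, the xylem ranges overlapped, and no tested gene of these types was called at 6 h with all libraries. Root hair genes (14) overlapped, at 74.4 to 101 CPM against 66.9 to 110 CPM, with a median log2 fold change of 0.28 over 7 tested genes. LRX1, EXPA7 and RHS18 were at 0 in all L-Kyn cut 6 h libraries. No loss is read for these genes, RGF2 or FEZ, since their uncut levels are not given here. Green tissue genes (12) overlapped as well, at 103 to 342 CPM against 293 to 619 CPM. The part of these markers in the members' levels was not tested.

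The levels under L-Kyn are set beside those of mock tips as a description, since the mock libraries chose the members. The median difference of L-Kyn cut 6 h minus mock cut 6 h tips was −0.15 in log2(CPM + 1) over the members and −0.06 over all genes tested. For L-Kyn uncut 6 h minus mock uncut tips it was −0.01 over the members and −0.03 over all genes, and for L-Kyn uncut 3 h minus mock uncut tips 0.47 and 0.02. All L-Kyn uncut 3 h libraries lay above every mock uncut library for 45 members, beside 7.94% of all genes, and both L-Kyn uncut 6 h libraries for 9 members, beside 10.4%. The rule chose members that were high in mock cut and low in mock uncut tips, so nothing is read from these medians and counts.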

How the data were processed

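Root tip libraries were made with a 3′ kit, per the labels' protocols. The authors deposited raw read counts per locus for 18 libraries; Bowtie2, HTSeq, DESeq2 and the build TAIR10 are named per the submitters' processing notes, without versions or settings. The 3 lines that name no gene were left out. Groups came from sample titles. Members, lists and classes were chosen with earlier results of these data known.

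Counts were fitted with edgeR 4.0.16 (quasi-likelihood, TMM, expression filter by group, 1 mean per group, all 18 libraries) with Benjamini-Hochberg adjustment at 0.05 over all genes tested, in 3 comparisons of L-Kyn tips. The test was also run on simulated counts with the same spread for every gene and no library that stood apart from its group. That run therefore does not cover the spread of these data. CPM values are not TMM-scaled. The alternatives were RLE factors, DESeq2 1.42.0, no filter, a filter at a mean of 5 CPM, a replicate block, fewer groups, and each library left out. Tools were R 4.3.3, limma 3.58.1, Python 3.11.15, numpy 2.4.6, pandas 2.3.3, scipy 1.17.1 and matplotlib 3.10.9.

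Named genes are the 10 members with the highest sum of mock differences, the 8 largest and 4 lowest calls at 6 h, the 5 largest at 3 h, up to 4 members of each list, and the last 2 members and first 2 other loci at the edge of the rule. Not every gene so taken is described; others are named as chosen after their values were seen. Because edgeR called none at 3 h with all libraries, the rule was applied there to the fit without the library labelled as L-Kyn cut 3 h replicate 2.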

Additional observations from a re-analysis of the deposited data

How the results depend on the processing

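Of the 200 members, 196 were chosen again with TMM-scaled CPM, 165 with a pseudocount of 0.5, 115 to 170 without 1 mock library (115 without mock uncut replicate 3), and 113 when cut tips were set only against mock uncut libraries of the same set in the order of the table. At 6 h the 19 calls became 68 with DESeq2, 101 of 170 with only the groups compared, and 0 to 75 with 1 library left out. RLE factors (19), no filter (28), a stricter filter (18) and L-Kyn libraries alone (21) stayed within 1.5 times. The median ran from 1.71 to 2.45 with 1 library left out, and 0 members were called lower under any alternative at 6 h. For 19 named genes at 6 h, 163 recomputed values kept sign and call, 65 lost the call, 19 gained it and 0 changed sign.

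At 3 h the 0 calls became 26 with DESeq2, 23 with no filter and 0 to 76 with 1 library left out, and the median of 1.18 ran from −0.53 to 1.92. For the response at 6 h minus 3 h, calls ran from 0 to 19 (19 without L-Kyn cut 3 h replicate 1) and the median of 0.48 from −0.10 to 2.58. Over all genes at 3 h, DESeq2 called 53 of 22093 and edgeR with no filter 44 of 22093, in either direction. The cause of these shifts was not tested. With 2 or 3 libraries a group, a gene's call rests on single libraries.

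With a replicate block 4 members were called at 6 h, beside 11 of 16354 genes in either direction. At 3 h and in the difference 0 members were called with it. Same-numbered cut and uncut libraries had correlations of deviations of 0.044 and 0.049 at 3 h and −0.165 and −0.098 at 6 h, so the numbers were not taken to pair the samples.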

Other observations

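The 145 loci that met every condition of the rule but ranked below 200 were described in the same way in L-Kyn tips. Of 136 tested, 128 had a positive log2 fold change of L-Kyn cut over L-Kyn uncut tips, beside 49.8% of all genes, with a median of 1.14. For 92 (67.6%) the L-Kyn cut libraries all lay above the L-Kyn uncut libraries, beside 19.9% of all genes. edgeR called 6 of them higher, beside 0.342% of all genes, and 0 lower, beside 0.263%, with all libraries. WRKY18, a transcription factor of defence chosen after its values were seen, had 24.9, 45.3 and 31.4 CPM in L-Kyn cut tips at 6 h, against 10.5 and 21.0 CPM in L-Kyn uncut tips (adjusted p = 0.382 by edgeR). At 3 h, without the library labelled as L-Kyn cut 3 h replicate 2, 14 of 139 were called higher, beside 1.42% of all genes, and the median was 0.92.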
